A study of Mus musculus with 8 samples.

Results

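The transcripts of 9 chemokine receptor genes (Ccr1, Ccr2, Ccr6, Cx3cr1, Cxcr2, Cxcr3, Cxcr4, Cxcr5 and Cxcr6) were described across all leukocyte clusters, tissues and times of a mouse stroke study. They were taken as a fixed list of names out of the 30406 genes that all libraries share. Unique molecular identifiers (UMIs, tags that count RNA molecules) of each receptor were summed per library and cluster and given as CPM, the count per 1000000 UMIs of that sum.

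Chemokines are small secreted proteins that set up gradients, and chemokine receptors are G-protein-coupled receptors with which leukocytes read these gradients when they leave the blood, enter a tissue or stay in it. CX3CR1 binds fractalkine and is a hallmark of microglia, CCR2 binds CCL2 and lets inflammatory monocytes leave the bone marrow, and CXCR2 guides neutrophils. CXCR3 and CXCR6 mark activated and tissue-resident lymphocytes, CXCR5 leads B cells to follicles, CCR6 reads CCL20, CCR1 reads CCL3 and CCL5, and CXCR4 binds CXCL12 and retains cells in the marrow.

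Adult male C57BL/6 mice were left as controls or underwent transient occlusion of the middle cerebral artery (MCAO), and leukocytes were taken 24 h or 72 h later. An intravenous CD45 antibody marked blood leukocytes, and CD45+ cells free of that antibody were sorted from brain parenchyma, pia (the inner meningeal layer) and dura (the outer layer) for droplet single-cell RNA sequencing. Controls were represented by 1 library per tissue, the 24 h time by 1 library of pia, 1 of dura and 2 of brain, and the 72 h time by 1 library of brain only. The methods name the controls as naive mice and a legend as sham-operated mice, and the reporting summary gives a pooled number of mice for each tissue but none for a library, so p-values measure only the spread between these libraries.

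The libraries held 6591898 to 20754181 UMIs, and 32457 of 36854 cell barcodes carried one of 21 cluster names given by the authors. Clusters were used in a library where it had at least 30 cells. The libraries of brain 24 h replicate 2 and brain 72 h stood apart: their files list 31053 genes against 32285 in the other 6. These 2 libraries shared 8 cell barcodes with each other and 0 to 2 with any of the rest, whereas the remaining libraries shared 10 to 32 pairwise. Haemoglobin transcripts (Hbb-bs and Hba-a1) summed to 427 and 275 CPM in these 2 libraries and to 0 to 93.7 CPM elsewhere. Levels are therefore given per library, and means, shares of cells and tests also without these 2 libraries. The 72 h library differs in time and in library type from control brain and from replicate 1, and only the comparison with replicate 2 stays within 1 gene list. By the supplement kit version 3 was used for brain 72 h and dura at 24 h and version 2 for the others. The shared barcodes split otherwise. Dura at 24 h shared 17 with control dura and 27 with control brain, but 0 with brain 24 h replicate 2 and 1 with brain 72 h. The kit of dura at 24 h is therefore not settled. If it was version 3, the time and the kit cannot be told apart in dura.

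Some cluster names did not hold for their markers. Granulo_1, named for granulocytes, carried 498 to 7815 CPM of the monocyte markers Ly6c2, Plac8 and Chil3 but only 77.5 to 3448 CPM of the neutrophil markers S100a8, S100a9, Retnlg and Csf3r, which reached 121967 to 305391 CPM in Granulo_2. CAM_1 and CAM_2, named for macrophages at the borders of the central nervous system, carried 2547 to 5075 CPM of Pf4, Lyve1 and Mrc1 in pia and dura. In control brain and brain 24 h replicate 1 the same 3 markers summed to 6.24 to 41.9 CPM with Lyve1 at 0, while the microglial markers Tmem119, P2ry12 and Sparc summed to 2328 to 11521 CPM. The cluster names are kept below as labels only.

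Of the 9 genes, 5 lie on chromosome 9 of the mouse build GRCm38. Cxcr6 (9:123806475-123811760, plus strand), Ccr1 (9:123962124-123968692, minus strand) and Ccr2 (9:124101950-124113557, plus strand) follow each other with gaps of 150363 and 133257 bases. Cx3cr1 (9:119901616-120069879, minus strand) and Cxcr5 (9:44511787-44561877, minus strand) lie farther away. The others are Cxcr2 (1:74153989-74161246, plus strand), Cxcr4 (1:128588199-128592293, minus strand), Ccr6 (17:8236043-8257141, plus strand) and Cxcr3 (X:101731535-101734269, minus strand). Cxcr6 lies inside Fyco1, which runs on the opposite strand, Cxcr5 overlaps the opposite-strand gene Bcl9l, and the annotated span of Cx3cr1 overlaps 9 genes, 3 of them on its own strand (Gorasp1, Csrnp1 and Xirp1).

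Cxcr3 and Cxcr6 had the most strongly correlated levels among all pairs of the 9 genes, with Pearson's r = 0.84 over 21 clusters on the log2(CPM + 10) scale. The upstream ends of their RefSeq promoter sequences (GRCm38.p6), up to the gene starts given above, are shown for that reason. Capitals mark matches to AGGAAG (an ETS core), TCACAC (a T-box half-site) or ACCACA (a RUNX core) on either strand.
Cxcr3 (X:101734270-101734397, minus strand): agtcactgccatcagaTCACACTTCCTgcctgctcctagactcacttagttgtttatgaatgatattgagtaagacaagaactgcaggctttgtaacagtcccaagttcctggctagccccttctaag
Cxcr6 (9:123806227-123806474, plus strand): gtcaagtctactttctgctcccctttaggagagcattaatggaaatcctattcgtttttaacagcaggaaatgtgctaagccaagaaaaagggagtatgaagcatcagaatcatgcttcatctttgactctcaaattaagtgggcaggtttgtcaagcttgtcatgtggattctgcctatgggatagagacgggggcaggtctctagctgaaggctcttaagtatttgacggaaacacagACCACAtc
The Cxcr3 window of 128 bases held 1 T-box match, overlapping 1 ETS match, and 0 RUNX matches. All 32851 promoter sequences were cut to their first 128 bases for comparison, which need not end at a gene start. Of these, 6.54% held the T-box letters, 15.3% the ETS letters and 7.52% the RUNX letters. The Cxcr6 window of 248 bases held 1 RUNX match, beside 0 ETS and 0 T-box matches. In the first 248 bases of all promoter sequences the RUNX letters were found in 14.0%, the ETS letters in 29.3% and the T-box letters in 12.2%. The matches describe letters only.

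**Figure D1:**
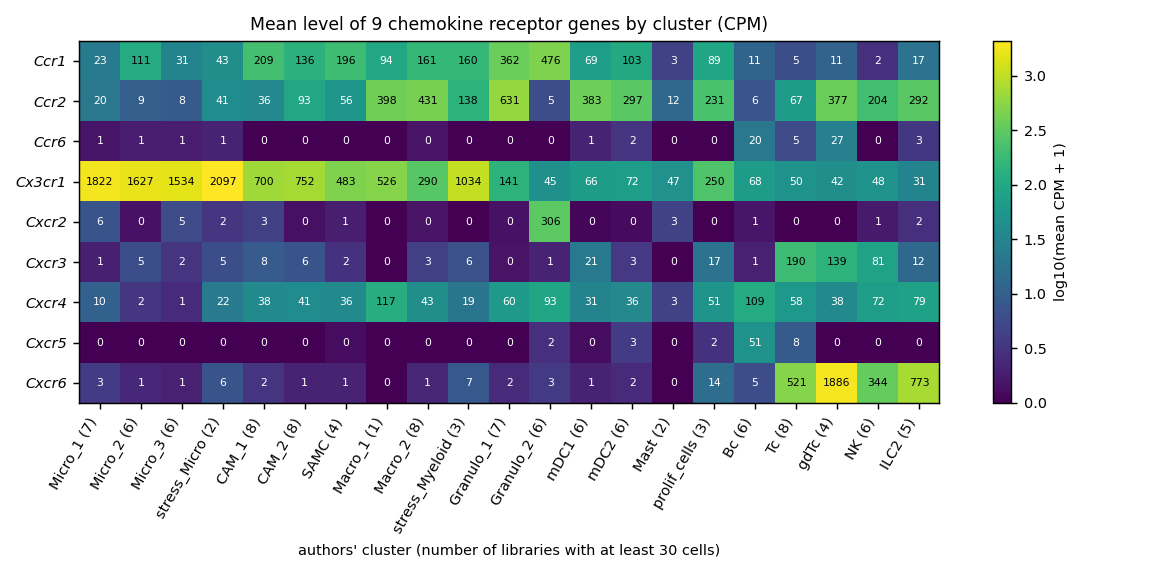
Mean CPM of the 9 receptor genes (rows) in the 21 clusters (columns, with the number of libraries of at least 30 cells), coloured by log10(mean CPM + 1) with the CPM printed in each cell. Cx3cr1 is at 1534 CPM or above in the 4 microglial clusters, Cxcr2 is at 306 CPM in Granulo_2 and at 6.22 CPM or below elsewhere, and Cxcr6 lies between 344 and 1886 CPM in Tc, NK, ILC2 and gdTc.

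Cx3cr1 gave 46838 UMIs in annotated cells. Its level was 2097 ± 393 CPM in stress_Micro (SD, n = 2), 1822 ± 1209 CPM in Micro_1 (n = 7), 1627 ± 1088 CPM in Micro_2 (n = 6) and 1534 ± 760 CPM in Micro_3 (n = 6). The order of these means was not that within libraries. Micro_1 was above Micro_3 in 6 of 6 libraries by more than the spread (mean log2 ratio 0.46, SD 0.323) and above Micro_2 in 6 of 6 with a spread larger than the difference (0.66, SD 0.728), while Micro_2 and Micro_3 were not separated. The stress_Micro cluster reached 30 cells only in the 2 libraries of the shorter gene list and was the lowest microglial cluster in both. Next came stress_Myeloid at 1034 ± 1495 CPM (n = 3), below Micro_3 in 2 of 3 libraries (mean log2 ratio 1.27, SD 1.21), then CAM_2 at 752 ± 774 CPM and CAM_1 at 700 ± 691 CPM (n = 8 each). Macro_2, a macrophage cluster found in every tissue, held 290 ± 166 CPM and Granulo_1 141 ± 123 CPM, whereas ILC2 had the lowest level at 30.9 ± 52.9 CPM (n = 5). Thinned shares rest on cells of at least 1000 UMIs, each thinned to 1000, and the median depths given with them are those of these cells. Left out were 753 of 4357 Micro_1 cells, 584 of 1035 B cells, 861 of 1830 Tc, 750 of 1195 ILC2 and 543 of 1270 Granulo_2 cells. Of the kept cells, 83.7% in Micro_1 held a Cx3cr1 UMI (95% interval 82.4 to 84.9, 3604 cells, median depth 1613 UMIs), against 7.98% of B cells (median depth 1454 UMIs), in which Cx3cr1 is taken as background. The unthinned shares, which are over all cells, were 90.6% and 5.99%. Without the 2 libraries of the shorter gene list the thinned shares were 83.0% and 1.26%.

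Within Micro_1 the Cx3cr1 level followed the tissue. It stood at 2144 CPM in control brain, 2226 and 3744 CPM in brain 24 h replicates 1 and 2, 2576 CPM at 72 h, 974 CPM in control pia, 903 CPM in pia at 24 h and 185 CPM in dura at 24 h, where only 36 cells carried the label. The brain libraries were thus all above the pial ones, which were above the dural one, an order that was not counted over all genes. This order did not hold in every cluster: in Macro_2 and Granulo_1 brain 24 h replicate 1 (189 and 63.7 CPM) lay below control pia (224 and 210 CPM). The microglial markers of Micro_1 ran from 15984 CPM in control brain to 444 CPM in dura at 24 h, and the part that mixed or free RNA plays in these levels was not tested.

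In CAM_1 Cx3cr1 was 1814 CPM in control brain, 1312 and 1348 CPM in the brain 24 h replicates, 593 CPM at 72 h, 207 and 135 CPM in control and 24 h pia, and 64.7 and 121 CPM in control and 24 h dura. CAM_2 gave 2428, 1224, 912 and 505 CPM in the brain libraries in the same order, 293 and 189 CPM in pia and 210 and 250.4 CPM in dura. Brain and meningeal libraries did not overlap in either cluster, and how many of all genes split likewise was not counted. The microglial marker sum was highest in control brain in both clusters. In CAM_1 it was 420.02 to 10162 CPM in brain, lowest at 72 h, and 94.98 to 183 CPM in the meninges. In CAM_2 it was 777 to 11521 CPM in control and 24 h brain but 257 CPM in brain 72 h, within the 180.4 to 306 CPM of the meninges. The part of microglia in these levels was not tested.

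Ccr2 gave 12963 UMIs, of which 34.3% were in Granulo_1 and 27.3% in Macro_2. Its mean level was 631 ± 265 CPM in Granulo_1 (n = 7), 431 ± 205 CPM in Macro_2 (n = 8), 398 CPM in Macro_1 (1 library), 383 ± 122 CPM in mDC1 (n = 6), 377 ± 180 CPM in gdTc (γδ T cells, n = 4), 297 ± 41.2 CPM in mDC2 (n = 6) and 292 ± 239 CPM in ILC2 (type 2 innate lymphoid cells, n = 5). Macro_1 could not be compared with its neighbours, and none of the other steps was larger than its spread. Granulo_2, the cluster with neutrophil markers, was lowest at 5.10 ± 7.37 CPM (n = 6), so that the clusters with the granulocyte name stood at opposite ends of the Ccr2 order.

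In thinned cells 46.0% of Granulo_1 cells (43.8 to 48.2, n = 2040, median depth 2775.5 UMIs), 34.7% of gdTc, 26.7% of mDC1 and 23.9% of Macro_2 cells held a Ccr2 UMI, against 0.305% of Micro_1 cells. The unthinned shares were 71.8%, 35.2%, 50.7%, 40.2% and 0.482%. Ccr2 and Cx3cr1, the pair that separates classical from patrolling monocytes, were detected together in 10.1% of Granulo_1 cells (207 of 2040, 8.87 to 11.5), in 5.01% of Macro_2 cells (185 of 3689), in 2.48% of mDC1 cells and in 1.95% of mDC2 cells (myeloid dendritic cells). A Cx3cr1 UMI was held by 22.1% of the Ccr2-positive Granulo_1 cells and 20.7% of all Granulo_1 cells, by 21.02% and 18.7% in Macro_2, and by 9.28% and 5.23% in mDC1, beside 7.98% of B cells. Most of these cells were in the 2 libraries of the shorter gene list in Granulo_1: without them joint detection was 1.92% in Granulo_1 (11 of 574 cells, 0.960 to 3.40) and 3.61% in Macro_2 (110 of 3044), and Cx3cr1 was in 5.07% of Ccr2-positive and 4.53% of all Granulo_1 cells. The share of Granulo_1 cells with Ccr2 was then 37.8%. For B cells the share with Cx3cr1 was then 1.26% (3 of 239 cells), so 7.98% understates the background in cells of the 2 libraries. In brain 24 h replicate 2 and brain 72 h Cx3cr1 was 161 and 126 CPM in B cells. It was 170 and 379 CPM there in Granulo_1 and 149 and 139 CPM in mDC1.

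Per library, Ccr2 in Granulo_1 was 421, 800.3 and 760.4 CPM in brain 24 h replicate 1, replicate 2 and brain 72 h, 233 and 496 CPM in control and 24 h pia, and 1021 and 688 CPM in control and 24 h dura. In Macro_2 it was 565 CPM in control brain (35 cells), 328 and 855 CPM in the brain 24 h replicates, 522 CPM at 72 h, 268 and 307 CPM in pia and 296 and 302 CPM in dura. The meningeal libraries lay within a narrow range there, below all 4 brain libraries, a split that was not counted over all genes.

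In CAM_1 Ccr2 was near 0 in most libraries and high in 1 of them. It was at 0, 0.666 and 12.5 CPM in control brain and the brain 24 h replicates (0, 1 and 3 UMIs), 7.31 and 13.7 CPM in pia, 6.47 and 21.3 CPM in dura, and 226 CPM in brain 72 h (108 UMIs in 212 cells). The monocyte markers moved with it, at 1089 CPM in brain 72 h and 2.19 to 47.6 CPM in the other libraries. In CAM_2 Ccr2 was 0 and 6.24 CPM in control brain and replicate 1, 241 CPM in replicate 2, 284 CPM at 72 h, 6.31 and 24.2 CPM in pia and 119.7 and 63.4 CPM in dura, with monocyte markers at 283 and 860.3 CPM in replicate 2 and 72 h and 0 to 70.1 CPM elsewhere. The part of monocytes in these clusters was not tested.

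**Figure D2:**
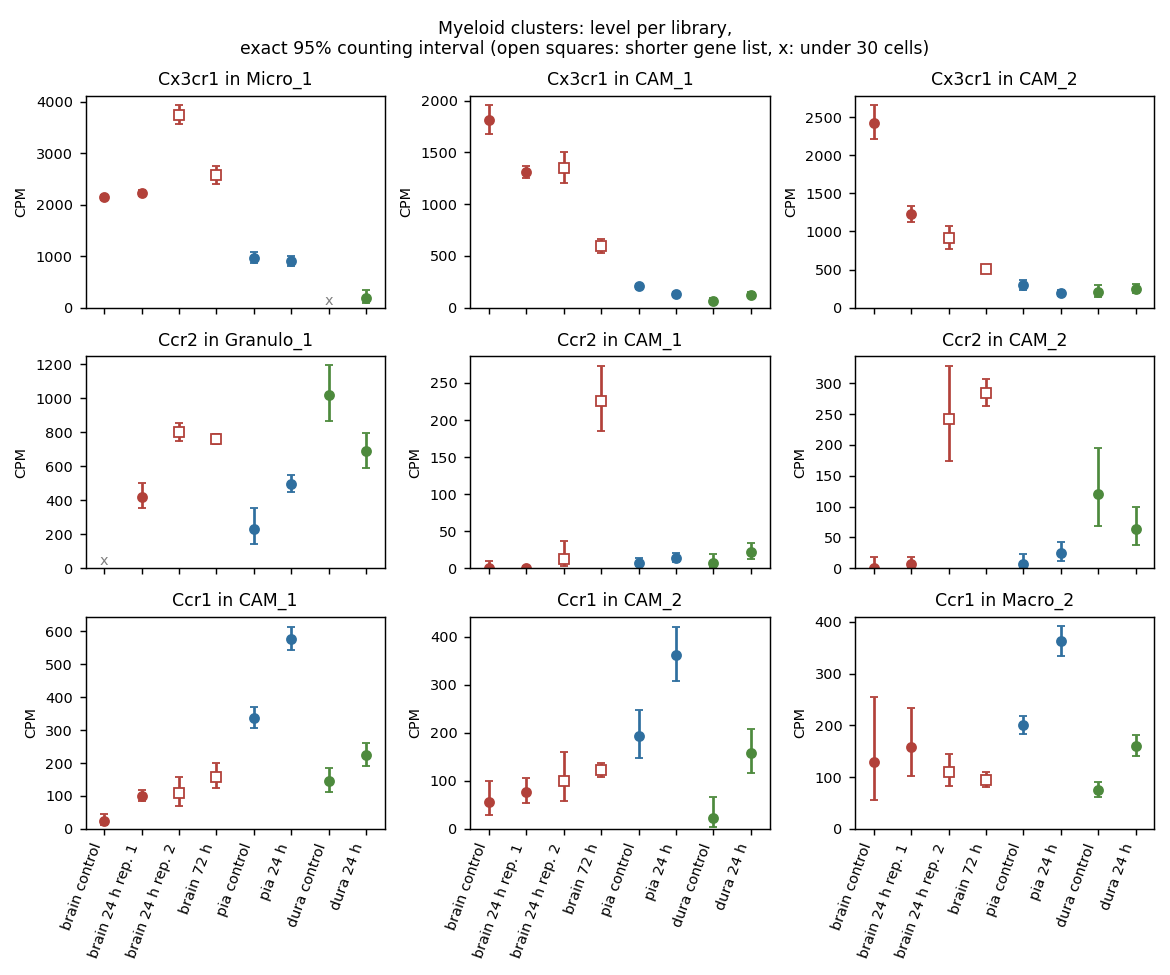
CPM of Cx3cr1, Ccr2 and Ccr1 per library (points, with exact 95% Poisson counting intervals) in myeloid clusters; red is brain, blue pia and green dura, open squares are the 2 libraries with the shorter gene list, and x marks fewer than 30 cells. Cx3cr1 in CAM_1 lies between 1814 CPM in control brain and 64.7 CPM in control dura, Ccr2 in CAM_1 is above 25 CPM only in brain 72 h, and Ccr1 in CAM_1 and Macro_2 is highest in pia at 24 h.

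Ccr1, a receptor for CCL3 and CCL5 on many myeloid cells, was found in all 21 clusters. Of its 8372 UMIs, 24.2% came from CAM_1, 20.5% from Macro_2 and 18.2% from Granulo_1. The mean level was 476 ± 381 CPM in Granulo_2 (n = 6), 362 ± 197 CPM in Granulo_1 (n = 7), 209 ± 176 CPM in CAM_1 (n = 8), 196 ± 115 CPM in SAMC (the stroke-associated myeloid cells of the study, n = 4) and 161 ± 90.7 CPM in Macro_2 (n = 8), and none of these neighbours differed beyond its spread. NK cells were lowest at 1.81 ± 2.96 CPM (n = 6). In thinned cells Ccr1 was found in 23.7% of Granulo_2, 20.4% of Granulo_1 and 20.0% of CAM_1 cells (median depths 2126, 2775.5 and 2167 UMIs) against 1.33% of B cells (1454 UMIs), and unthinned in 37.0%, 40.6%, 31.3% and 0.966%.

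Within CAM_1 the Ccr1 level was 23.6 CPM in control brain, 101 and 108 CPM in the brain 24 h replicates and 159 CPM at 72 h. It was 337 CPM in control pia and 578 CPM in pia at 24 h, and 144 CPM in control dura and 224 CPM in dura at 24 h. Each 24 h library was above the control of its own tissue, and pia was above brain and dura at the same time. How many of all genes show these orders was not counted. By the markers given above, CAM_1 cells of brain and of the meninges are unlike. The brain libraries also differ among themselves in microglial markers, and the part of this in the Ccr1 levels was not tested. The 24 h to control ratios were 4.26 and 4.59 in brain, 1.72 in pia (1.54 to 1.92) and 1.55 in dura (1.17 to 2.09), with counting intervals that all excluded 1.

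Macro_2 showed the same order in the meninges, with Ccr1 at 200.2 and 363 CPM in control and 24 h pia and at 75.5 and 159.7 CPM in control and 24 h dura. The brain libraries gave 129 CPM in controls, 158 and 110.2 CPM at 24 h and 93.9 CPM at 72 h, where ratios to control lay within counting error. In CAM_2, the values were 56.0 CPM in control brain, 76.9 and 100.1 CPM at 24 h, 121 CPM at 72 h, 192 and 361 CPM in control and 24 h pia, and 22.4 and 157 CPM in control and 24 h dura, the control dura value resting on 3 UMIs. The brain libraries differed in Granulo_1, where Ccr1 was 711 CPM in brain 24 h replicate 1, 182 CPM in replicate 2 and 154 CPM at 72 h.

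Cxcr2, the main receptor of neutrophils for CXCL1 and CXCL2, was close to a marker of 1 cluster. Granulo_2 held 593 of its 660 UMIs (89.8%) at 306 ± 192 CPM (n = 6), while no other cluster had a mean above 6.22 CPM and 3 clusters held no Cxcr2 UMI in any library. The 6.22 CPM were those of Micro_1 and came mostly from 2 UMIs in its 36 cells of dura at 24 h (37.0 CPM). In all 5 libraries with both clusters Granulo_2 was above Micro_1 (mean log2 ratio 6.69, SD 4.14). The level in Granulo_2 was 484, 458 and 304 CPM in brain 24 h replicate 1, replicate 2 and brain 72 h, 444 CPM in pia at 24 h, and 92.8 and 52.0 CPM in control and 24 h dura. Dural libraries thus lay below the brain and pial ones, a split that was not counted over all genes. It held also without the 2 libraries of the shorter gene list. The neutrophil marker sum did not follow that order, at 121967 to 305391 CPM in brain and pia and 202942 to 214349 CPM in dura. Thinned cells held a Cxcr2 UMI in 18.8% of Granulo_2 (16.1 to 21.9, median depth 2126 UMIs), 0.0980% of Granulo_1 and 0.0832% of Micro_1 cells (unthinned 29.4%, 0.235% and 0.138%). Without the 2 libraries of the shorter gene list the Granulo_2 share was 8.91%, and the level 268 ± 227 CPM (n = 4).

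Cxcr4, which was found in all 21 clusters, gave 3004 UMIs. The highest means were 117 CPM in Macro_1, present in 1 library only, 109 ± 142 CPM in B cells (n = 6), 92.7 ± 68.3 CPM in Granulo_2 (n = 6), 79.0 ± 50.3 CPM in ILC2 (n = 5) and 71.7 ± 40.2 CPM in NK cells (n = 6), with no neighbours beyond their spread and Macro_1 not compared. With a minimum of 10 cells the Macro_1 mean was 39.5 CPM and B cells were first. Micro_2 and Micro_3 were lowest, at 2.34 and 1.47 CPM (n = 6 each, each SD larger than its mean). In thinned cells 13.3% of B cells, 10.8% of Granulo_1 and 8.39% of Granulo_2 cells held a Cxcr4 UMI (median depths 1454, 2775.5 and 2126 UMIs), against 0.0277% of Micro_1 cells (1613 UMIs). The unthinned shares were 11.7%, 24.0%, 15.9% and 0.161%.

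In B cells Cxcr4 was 380.3 CPM in brain 24 h replicate 2, 149 CPM at 72 h, 53.4 and 13.3 CPM in control and 24 h pia, and 29.1 and 27.6 CPM in control and 24 h dura. In Granulo_2 it was 37.2 CPM in brain 24 h replicate 1, 166 CPM in replicate 2, 192 CPM at 72 h, 45.9 CPM in pia at 24 h and 72.5 and 43.1 CPM in dura. The 2 libraries of the shorter gene list were the highest in both clusters. For B cells they were also the only brain libraries with at least 30 cells, so gene list and tissue cannot be told apart there. The B-cell mean without these 2 libraries covers pia and dura alone. Without them Cxcr4 was highest in NK cells at 63.3 ± 42.9 CPM (n = 4), ILC2 at 58.0 ± 21.03 CPM (n = 4) and Granulo_2 at 49.7 ± 15.6 CPM (n = 4), B cells were in the ninth place at 30.9 ± 16.7 CPM (n = 4), and the thinned share was 3.77% of B cells and 7.26% of NK cells.

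Cxcr6, the receptor of CXCL16, was a receptor of lymphocyte clusters. It gave 4175 UMIs, 41.5% of them in gdTc, 27.4% in ILC2 and 20.8% in Tc. The level was 1886 ± 1036 CPM in gdTc (n = 4), 773 ± 520 CPM in ILC2 (n = 5), 521 ± 310 CPM in Tc (n = 8) and 344 ± 208 CPM in NK cells (n = 6), and next came 14.3 CPM in proliferating cells. Among these steps gdTc over ILC2 (mean log2 ratio 1.40, SD 0.446, higher in 4 of 4 libraries) and NK over proliferating cells (5.01, SD 1.97, 3 of 3 libraries) were larger than the spread, and ILC2, Tc and NK were not separated. A Cxcr6 UMI was found in 79.3% of thinned gdTc (75.0 to 83.2, median depth 1196.5 UMIs), 41.8% of ILC2, 25.2% of Tc and 19.0% of NK cells, against 0.0555% of Micro_1 cells (1613 UMIs). Unthinned shares were 82.0%, 44.7%, 27.0%, 23.9% and 0.0689%.

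By library, Cxcr6 in gdTc was 527 CPM at brain 72 h, 1632 CPM in pia at 24 h, and 2754 and 2631 CPM in control and 24 h dura. In ILC2 it was 134 CPM at brain 72 h, 587 and 617 CPM in control and 24 h pia, and 1521 and 1007 CPM in control and 24 h dura. Dura was therefore highest in both of these innate-like clusters, and how many of all genes split likewise was not counted.

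In Tc the order was different. Cxcr6 was 1042 and 782 CPM in control brain and brain 24 h replicate 1 (31 and 33 cells), 190.2 CPM in replicate 2, 147 CPM at 72 h, 654 and 336 CPM in control and 24 h pia, and 632 and 388 CPM in control and 24 h dura. The 2 libraries of the shorter gene list were lowest, and there the T-cell markers Cd3g, Trbc2 and Cd8a in this cluster also summed to 1992 and 1938 CPM against 3795 to 4837 CPM in the other libraries. The 24 h to control ratio was 0.514 in pia (0.391 to 0.675), 0.614 in dura (0.510 to 0.740) and 0.751 in brain replicate 1 (0.465 to 1.20, within counting error). NK cells gave 105 and 98.2 CPM in brain 24 h replicate 2 and 72 h, 622 and 456 CPM in pia and 437 and 348 CPM in dura.

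Cxcr3, the receptor of the interferon-induced CXCL9 and CXCL10, was highest in 3 of the 4 Cxcr6 clusters, at a lower level, and was only 12.2 ± 11.6 CPM in ILC2 (n = 5). Of its 859 UMIs, 40.3% were in Tc, at 190 ± 67.8 CPM (n = 8), followed by gdTc at 139 ± 88.7 CPM (n = 4), NK cells at 80.5 ± 44.5 CPM (n = 6) and mDC1 at 21.2 ± 16.4 CPM (n = 6). NK cells were above mDC1 by more than the spread (mean log2 ratio 2.14, SD 1.07, 6 of 6 libraries). In Tc it was 298 and 291 CPM in control brain and brain 24 h replicate 1, 176 CPM in replicate 2, 149.9 CPM at 72 h, 169 and 171 CPM in control and 24 h pia and 108 and 157 CPM in control and 24 h dura. All ratios of 24 h to control in Tc lay within counting error.

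A Cxcr3 UMI was present in 13.3% of thinned Tc, 11.5% of gdTc and 7.58% of NK cells (median depths 1308, 1196.5 and 1420 UMIs) against 0.225% of ILC2 (1 of 445 cells) and 0.222% of Micro_1 cells (unthinned 16.0%, 16.3%, 9.04% and 0.436%). Cxcr3 and Cxcr6 were detected together in 9.95% of gdTc (39 of 392), 4.64% of Tc (45 of 969) and 2.96% of NK cells (16 of 541). Of the Cxcr3-positive cells, 86.7% of gdTc, 34.9% of Tc and 39.0% of NK cells also held a Cxcr6 UMI, beside 79.3%, 25.2% and 19.0% of all cells of these clusters.

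The remaining lymphocyte receptors were rare. Cxcr5, the follicle-homing receptor, gave 89 UMIs, 73.0% of them in B cells at 50.5 ± 34.8 CPM (n = 6), above Tc at 7.83 CPM by more than the spread (mean log2 ratio 3.69, SD 1.19, 6 of 6 libraries), and 13 clusters had none in any library. B-cell values were 43.9 and 40.1 CPM in brain 24 h replicate 2 and 72 h, 120.2 and 26.6 CPM in control and 24 h pia and 42.0 and 30.4 CPM in control and 24 h dura, from 2 to 22 UMIs each. Ccr6, the receptor of CCL20 on B cells and interleukin-17-producing γδ T cells, gave 94 UMIs and was 27.4 ± 16.2 CPM in gdTc (n = 4) and 20.1 ± 17.3 CPM in B cells (n = 6), with 10 clusters at 0 in every library. Thinned B cells held Cxcr5 in 6.21% and Ccr6 in 3.33% of 451 cells (median depth 1454 UMIs, unthinned 5.80% and 2.80%). In Micro_1 these shares were 0 of 3604 cells, which allows up to 0.0832%, and 0.111%.

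**Figure D3:**
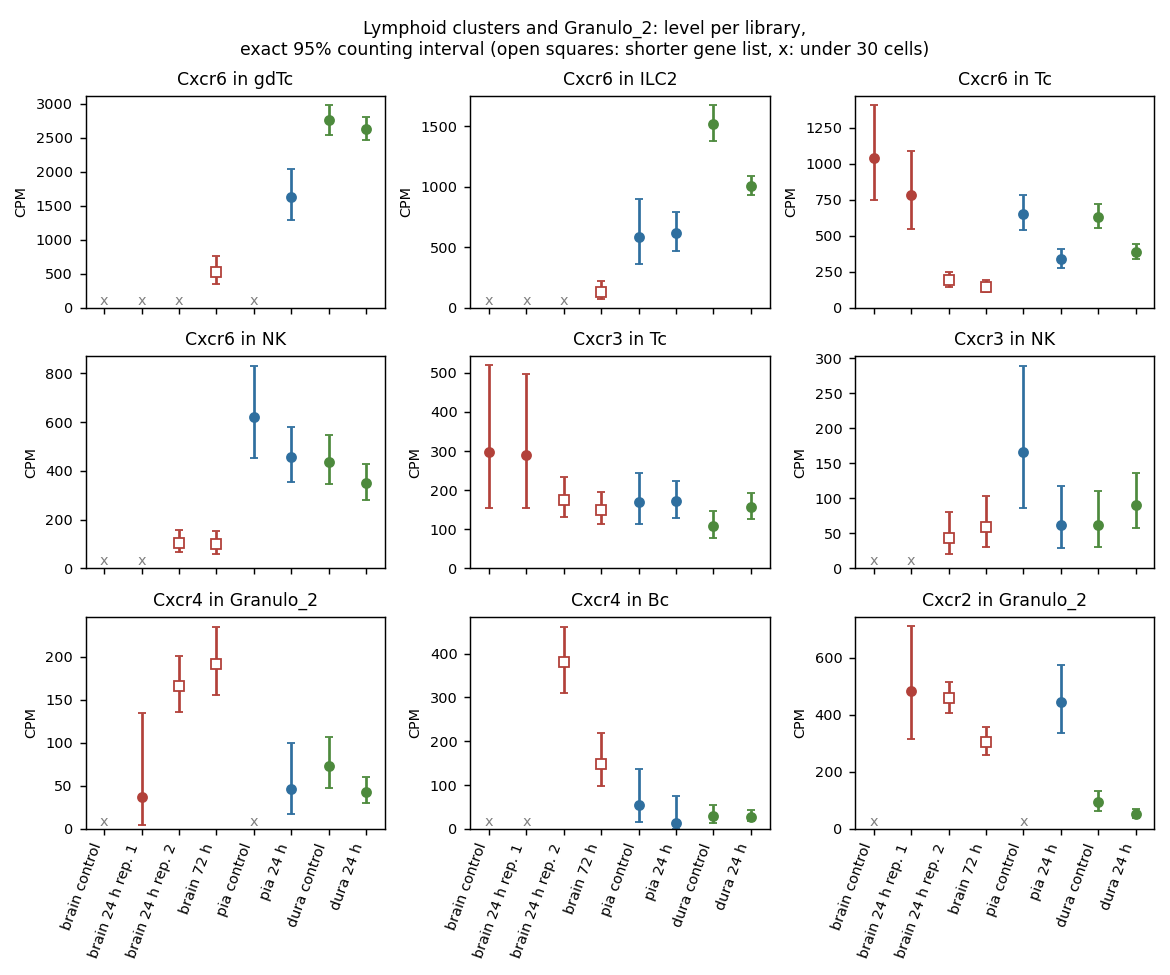
CPM of Cxcr6, Cxcr3, Cxcr4 and Cxcr2 per library (points, with exact 95% Poisson counting intervals) in lymphoid clusters and Granulo_2; colours and symbols as for the myeloid plot. Among libraries with at least 30 cells, Cxcr6 in gdTc and ILC2 is highest in dura, and Cxcr6 in Tc and NK is lowest in the 2 libraries with the shorter gene list. For NK these are the only brain libraries of that size, so gene list and tissue cannot be told apart. Cxcr2 in Granulo_2 is 92.8 CPM or below in dura and 304 CPM or above elsewhere.

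Without the 2 libraries of the shorter gene list the mean levels kept most of their order. Cx3cr1 was 1286 ± 877 CPM in Micro_1 (n = 5), 1157 ± 586 CPM in Micro_3 and 1087 ± 876 CPM in Micro_2 (n = 4 each), followed by CAM_2 at 766 ± 906 CPM, while stress_Myeloid was in the eighth place in place of the fifth, at 172 ± 95.5 CPM (n = 2). Ccr2 was 572 ± 299.6 CPM in Granulo_1 (n = 5), and Ccr1 was 567 ± 450.2 CPM in Granulo_2 (n = 4) and 439 ± 178 CPM in Granulo_1 (n = 5), where the thinned share with Ccr1 was 34.5%. Cxcr6 was 2339 ± 615 CPM in gdTc (n = 3), 933 ± 436 CPM in ILC2 (n = 4), 639 ± 260.0 CPM in Tc (n = 6) and 466 ± 114 CPM in NK cells (n = 4). Cxcr3 was 199 ± 77.4 CPM in Tc (n = 6), Cxcr5 54.8 ± 44.1 CPM in B cells (n = 4) and Ccr6 30.4 ± 18.4 CPM in gdTc (n = 3). Each of these means lay within 1 SD of the value over all libraries, and the leading cluster changed for Cxcr4 and, with stress_Micro absent, for Cx3cr1.

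The levels in all annotated cells of a library mix the share of each cluster with the level per cell. In such sums fewer cells of a type and less RNA per cell cannot be told apart. Cx3cr1 was 1951 CPM in control brain, 1443 and 1213 CPM in the brain 24 h replicates, 554 CPM at 72 h, 243 and 165 CPM in control and 24 h pia and 58.9 and 65.4 CPM in control and 24 h dura. The order was brain over pia over dura without overlap, and in brain the level was lower at each later time. How many of all genes separate the tissues in this way was not counted. Micro_1 made up 43.4% of cells in control brain and 3.41% at 72 h.

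Ccr1 was 17.1 CPM in control brain, 97.5 and 102 CPM in the brain 24 h replicates, 101 CPM at 72 h, 199 and 346 CPM in control and 24 h pia, and 67.1 and 109.9 CPM in control and 24 h dura. Every 24 h library was above its control, by ratios of 5.71 (4.71 to 6.97) and 5.99 (4.93 to 7.34) in brain, 1.74 (1.62 to 1.87) in pia and 1.64 (1.45 to 1.85) in dura. How many of all genes were above control in every 24 h library was not counted. The main source differed between the brain libraries: the largest part of Ccr1 UMIs came from Micro_1 in controls (30.3% of 119 UMIs), from SAMC in replicate 1 (28.9% of 851), from Granulo_2 in replicate 2 (36.0% of 689) and from Granulo_1 at 72 h (34.0% of 1629).

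Ccr2 was 13.6 CPM in control brain, 29.4 and 247 CPM in the brain 24 h replicates, 357 CPM at 72 h, 163 and 178 CPM in pia and 263 and 169 CPM in dura. Cxcr4 was 1.58, 1.72, 71.2 and 94.5 CPM in the brain libraries in the same order, 27.9 and 18.3 CPM in pia and 54.0 and 44.5 CPM in dura. For both genes brain 24 h replicate 1 lay near the control and replicate 2 near 72 h, so that the replicates of 1 group differed more than control and 24 h did in either meninx. Granulo_1 made up 0.116% of cells in control brain, 1.88% in replicate 1, 5.42% in replicate 2 and 21.7% at 72 h.

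Cxcr2 was 0.431 CPM in control brain, 4.35 and 45.5 CPM in the brain 24 h replicates, 10.8 CPM at 72 h, 0 CPM in control pia (which allows up to 0.517 CPM), 7.95 CPM in pia at 24 h, and 5.94 and 5.44 CPM in dura. The share of Granulo_2 cells was 0.0931%, 1.03%, 5.82% and 6.17% in the brain libraries, 0.356% and 3.29% in control and 24 h pia, and 5.19% and 7.95% in control and 24 h dura. Cxcr2 and this share were both higher at 24 h than in controls in brain and pia. They parted elsewhere: from replicate 2 to 72 h Cxcr2 was lower at a similar share, and the dural libraries had such shares at a low Cxcr2 level, with a 24 h to control ratio within counting error (0.916, 0.572 to 1.48).

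Cxcr6 was 10.1 CPM in control brain, 6.53 and 18.1 CPM in the brain 24 h replicates, 7.61 CPM at 72 h, 42.2 and 41.6 CPM in pia and 236 and 234 CPM in dura. Cxcr3 was 5.31, 4.24, 10.4 and 6.87 CPM in brain, 20.1 and 13.6 CPM in pia and 23.6 and 30.7 CPM in dura. Cxcr6 did not overlap between the 3 tissues, and how many of all genes separate them likewise was not counted. The 24 h to control ratios of Cxcr6 were 0.986 (0.832 to 1.17) in pia and 0.989 (0.922 to 1.06) in dura. Ccr6 and Cxcr5 were at most 4.33 and 3.09 CPM, both in dura at 24 h.

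**Figure D4:**
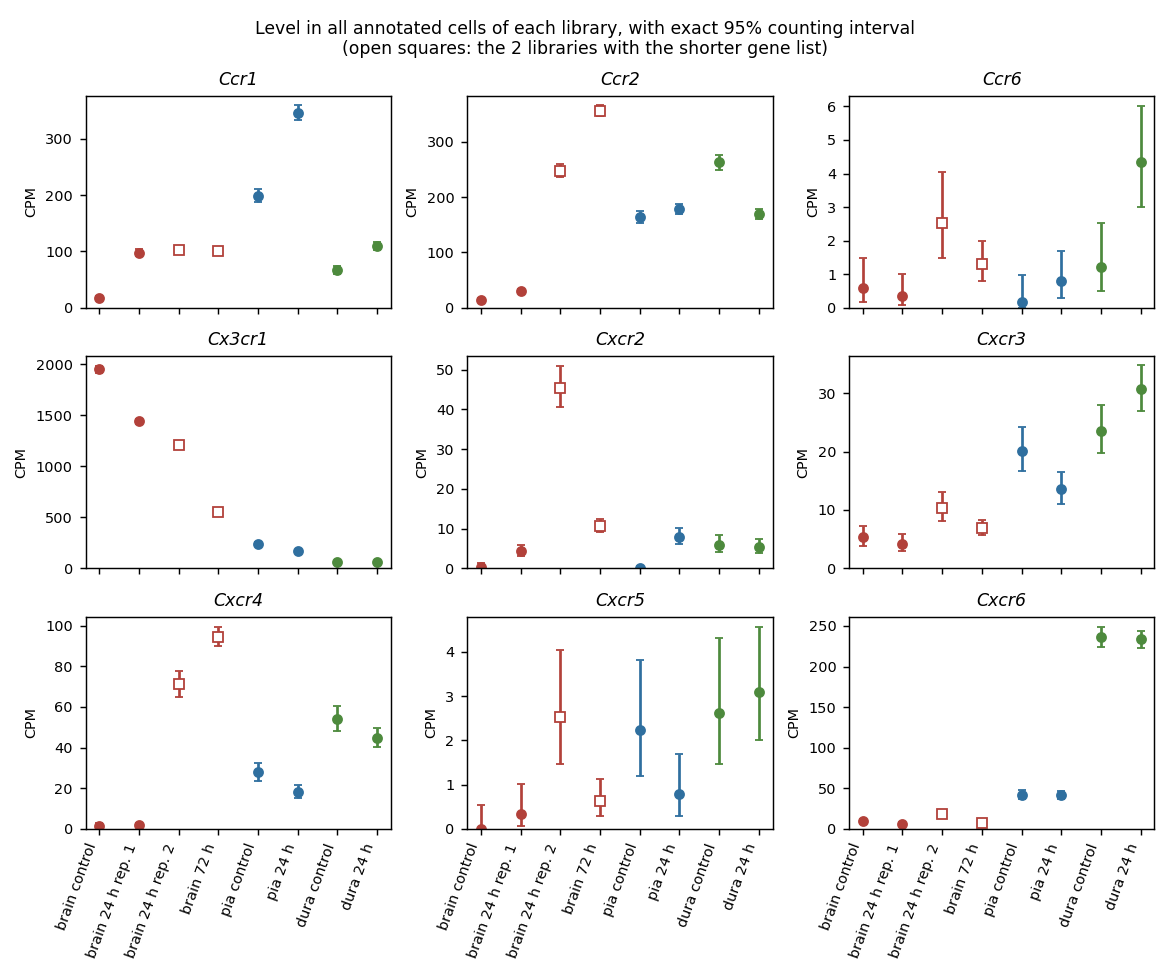
CPM of each receptor in all annotated cells of the 8 libraries (points with exact 95% Poisson counting intervals; red brain, blue pia, green dura, open squares the 2 libraries with the shorter gene list). Ccr1 is higher at 24 h than in the control of each tissue, Cx3cr1 is at 1951 CPM in control brain and 554 CPM at 72 h, and Cxcr6 is at 236 and 234 CPM in dura against 42.2 CPM or below elsewhere.

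Time was tested with edgeR's quasi-likelihood test on the sums, with tissue and time as additive terms over all 8 libraries. Each time term is thus shared by the tissues. In the comparison of 72 h with 24 h in brain given below, the fitted 24 h level of brain therefore also draws on pia and dura. Only brain at 24 h has 2 libraries, and these differ in gene list. The error of a fit thus also takes in differences between tissues in their change with time. A fit that lacks 1 or both of these libraries has no replicate, and its error comes from such differences alone. A gene was called where the Benjamini-Hochberg adjusted p over all genes was under 0.05 and the fold at least 2. For 24 h against control in all annotated cells, 0 of 9 receptors were called, against 0% of all 13437 genes; 406 genes and 1 receptor had an unadjusted p under 0.05. The receptor was Ccr1, 1.29 higher on the log2 scale (SE 0.448, unadjusted p = 0.0277, adjusted p = 0.992 by edgeR). Cxcr2 was 3.57 higher with an SE of 1.75. DESeq2 called 67 genes (0.499%), among them Cxcr2 as the only receptor (log2 4.44, adjusted p = 0.0425). Without the 2 libraries of the shorter gene list, edgeR called 52 genes (0.442%) and 0 of the 8 receptors tested, with Ccr1 at 1.23 (SE 0.450).

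Within clusters the same test gave 0 calls among 31 receptor tests in 8 clusters. The share of all genes called was 0% in CAM_1, Granulo_1, Micro_1 and Tc, 0.0154% in CAM_2, 0.0207% in Macro_2, 0.0114% in Micro_2 and 0.0998% in Micro_3, and 3 receptor tests had an unadjusted p under 0.05. These were Ccr1 in CAM_1 (log2 1.10, SE 0.419) and CAM_2 (1.16, SE 0.456), both higher at 24 h, and Cxcr6 in Tc (-0.94, SE 0.396), with edgeR adjusted p of 0.716 to 1. DESeq2 called 46 genes and 0 receptors in these fits. Ccr1 in Macro_2 differed by 0.69 (SE 0.364), and Cx3cr1 in Micro_1 by 0.08 (SE 0.520). Leaving out brain 24 h replicate 2, edgeR called Ccr1 in CAM_2 (1.05, adjusted p = 0.0442) beside 4.74% of the genes tested there.

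For 72 h against 24 h in brain, with 1 library at 72 h taken to vary like the others, edgeR called 0 of 9 receptors in all annotated cells and 0% of genes (532 genes and 0 receptors at an unadjusted p under 0.05), and DESeq2 called 10 genes (0.0744%) and 0 receptors. Cx3cr1 was lower by 1.32 on the log2 scale (SE 0.623, adjusted p = 0.872 by edgeR), Ccr2 higher by 2.03 (SE 1.19) and Cxcr4 higher by 2.15 (SE 1.67). Without brain 24 h replicate 2 these were called at -1.55 (adjusted p = 0.0039), 3.90 (adjusted p = 0.004) and 5.89 (adjusted p = 1.78e-05), but so were 42.1% of all genes, and 72 h could then not be told apart from the shorter gene list.

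In clusters, 0 of 19 receptor tests were called by edgeR, with 0.184% of genes called in CAM_1, 0.169% in CAM_2 and 0% in Macro_2 and Tc. Ccr2 in CAM_1 was closest to the threshold, 6.34 higher at 72 h (SE 0.983, unadjusted p = 0.000129, adjusted p = 0.0549), and DESeq2 called it (6.25, adjusted p = 6.06e-05) with 1.42% of genes. Cxcr4 in CAM_1 was next, at 4.79 (SE 1.27, adjusted p = 0.232), with 2.62, 0, 24.97 and 125 CPM in control brain, the brain 24 h replicates and 72 h. These 2 tests were the ones with an unadjusted p under 0.05. Without replicate 2, 33.3% of CAM_1 genes were called.

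Between brain 72 h and brain 24 h replicate 2, which share a gene list but not, by the supplement, a kit version, each side is 1 library and only counting error can be given. In all annotated cells the ratio of 72 h to replicate 2 was 0.457 for Cx3cr1 (0.443 to 0.471), 0.237 for Cxcr2 (0.195 to 0.286), 1.44 for Ccr2 (1.37 to 1.52), 1.33 for Cxcr4 (1.20 to 1.48) and 0.985 for Ccr1 (0.900 to 1.08). Within the 15 clusters with enough cells in both, receptor ratios beyond counting error lay on either side of 1, and some of them are named here. How many of all genes differ in that way was not counted. Cx3cr1 was lower at 72 h in the 4 microglial clusters (0.688 to 0.837) and in CAM_1 (0.440), CAM_2 (0.553) and SAMC (0.321), but higher in Granulo_1 (2.23), Granulo_2 (2.37) and mDC2 (1.65). In B cells, taken as background, it was 161 CPM in replicate 2 and 126 CPM at 72 h. Granulo_2, at 54.3 and 129 CPM, was thus near or below background in both, and mDC2, at 129 and 213 CPM, was below it in replicate 2. Ccr2 was higher in CAM_1 (18.1, 6.02 to 89.0, 108 against 3 UMIs) and SAMC (4.46), and Cxcr4 in CAM_1 (5.02, 2.18 to 14.2) and SAMC (3.26). Ccr2 was also higher in Micro_2, Micro_3 and stress_Micro, but lower in Macro_2 and mDC1. Cxcr4 was also higher in Micro_2 and Granulo_1, but lower in B cells. Ccr1 and Cxcr2 were lower in Granulo_2 (0.495 and 0.663).

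Dura was compared with pia over the control and 24 h libraries of each. By edgeR 0 of 9 receptors and 0% of genes were called in all annotated cells, while 561 genes and 3 receptors had an unadjusted p under 0.05. Cxcr6 was 2.39 higher in dura (SE 0.464, unadjusted p = 0.00201, adjusted p = 1), and Cx3cr1 and Ccr1 were lower by 1.75 (SE 0.504) and 1.71 (SE 0.542). DESeq2 called 50 genes (0.372%), with Cxcr6 (2.41, adjusted p = 0.00418) as the only receptor. Without the 2 brain libraries of the shorter gene list, the estimates stayed at 2.42 for Cxcr6 (SE 0.199) and -1.74 for Cx3cr1 (SE 0.247) with smaller errors. That fit holds no replicate of any tissue and time, so the calls from it rest on no spread between replicates. There edgeR called Cxcr6 (adjusted p = 0.00192), Cx3cr1 (adjusted p = 0.00735) and Cxcr4 (1.04, SE 0.197, adjusted p = 0.0191), 3 of 8 receptors tested, against 6.96% of all genes. Ccr1 was at -1.69 (SE 0.539, adjusted p = 0.176).

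The clusters that carry Cxcr6 had larger shares in dura. ILC2 were 10.2% and 14.9% of cells in control and 24 h dura against 1.17% and 2.17% in pia, gdTc were 6.76% and 7.75% against 0.569% and 1.10%, and Tc were 11.7% and 14.2% against 4.48% and 7.37%. Within Tc the Cxcr6 level differed by 0.05 on the log2 scale between dura and pia (SE 0.499, adjusted p = 1 by edgeR). In ILC2 and gdTc, which were not tested, the level was also higher in dura, at 1521 and 1007 CPM against 587 and 617 CPM in ILC2, and at 2754 and 2631 CPM against 1632 CPM in gdTc. The parts of cell share and of level per cluster were not tested.

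For Ccr1 the difference from pia was also seen within clusters. It was lower in dura by 1.24 in CAM_1 (SE 0.504), 1.78 in CAM_2 (SE 0.566) and 1.32 in Macro_2 (SE 0.433) on the log2 scale, with each dural library below the pial library of the same time. None of 19 receptor tests in 4 clusters was called by edgeR with all libraries (0% of genes in CAM_1, 0.0154% in CAM_2, 0.103% in Macro_2, 0.0314% in Tc), and these 3 had an unadjusted p under 0.05; DESeq2 called 14 genes and 0 receptors. Without the 2 libraries of the shorter gene list edgeR called Ccr1 in CAM_1 (-1.24, adjusted p = 0.0371) and Macro_2 (-1.32, adjusted p = 2.09e-05), and Cxcr4 in CAM_1 (2.28, adjusted p = 0.00422), where 1.19% and 2.24% of genes were called in CAM_1 and Macro_2. Cxcr4 in CAM_1 was 19.0 and 8.73 CPM in control and 24 h pia and 71.1 and 51.3 CPM in control and 24 h dura. The calls without those 2 libraries come from fits with no replicate of any tissue and time.

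**Figure D5:**
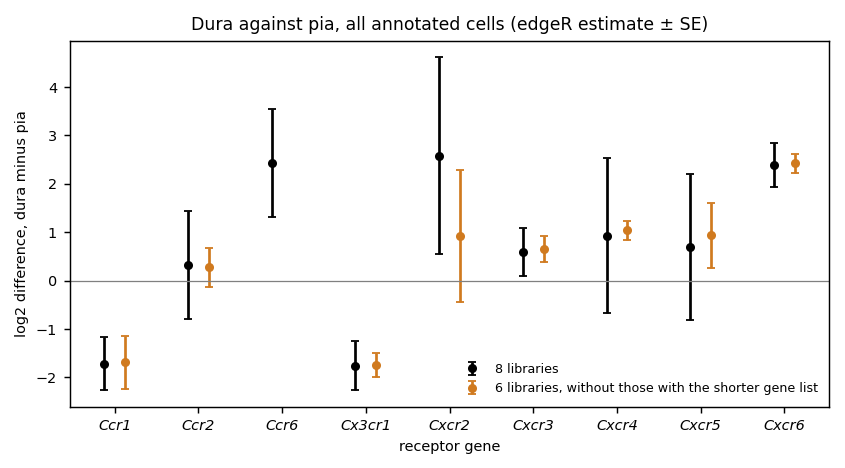
Difference between dura and pia in all annotated cells for each receptor (log2, edgeR estimate with SE), over all 8 libraries (black) and without the 2 brain libraries of the shorter gene list (orange; Ccr6 was then not tested). The estimate for Cxcr6 is 2.39 and 2.42 and that for Cx3cr1 -1.75 and -1.74, with smaller errors in the 6 libraries. These 6 libraries hold no replicate of any tissue and time.

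The 2 libraries of the shorter gene list differed from the rest in many receptors within clusters, without a test. In mDC1, mDC2, B cells and NK cells these were the only brain libraries with at least 30 cells. Gene list and tissue cannot be told apart in those clusters. Over 13 clusters and genes with a mean of at least 10 CPM, 17 of 51 receptor and cluster pairs (33.3%) were higher in both of these libraries than in every other library, against 26.5% of pairs over all genes, and 4 (7.84%) were lower, against 15.9%. The higher pairs were 8 of 13 for Cx3cr1, 6 of 10 for Cxcr4, 2 of 9 for Ccr2 and 1 of 1 for Ccr6. The lower ones were 2 of 2 for Cxcr6, 1 of 11 for Ccr1 and 1 of 3 for Cxcr3. Genes at large thus split between these libraries as well, and the difference between the receptors and all genes was not tested.

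The genes whose means followed each receptor most closely across the 21 clusters were taken from 6457 genes by Pearson's r on the log2(mean CPM + 10) scale, as a description of points that share libraries. For Ccr1 they were Aldh3b1 (r = 0.917), Lyz2 (0.911) and Ccl6 (0.907), and for Ccr2 S100a4 (0.904), Crip1 (0.830) and Spop (0.820). Cx3cr1 ran with Pla2g15 (0.984), Adap2os (0.982) and Daglb (0.974), and Cxcr2 with Olfm4 (0.985), Itgb2l (0.983) and Chil1 (0.983). Of the lymphocyte receptors, Cxcr6 ran with Icos (0.989), Zap70 (0.984) and Tcrg-C4 (0.976), and Cxcr3 with Cd247 (0.934), Cd3e (0.924) and Fam189b (0.922). Cxcr5 ran with Fcmr (0.946), Ighg2b (0.941) and Iglv1 (0.941), and Ccr6 with Blk (0.913), Nebl (0.810) and Lysmd2 (0.802). Cxcr4 had the weakest partners, Scand1 (0.864), Ezr (0.825) and Atp5e (0.790). Without the 2 libraries of the shorter gene list, over 19 clusters, the 3 genes of Ccr1 and Cxcr5 were kept, 2 of 3 for Cxcr2, Cxcr3 and Cxcr6, 1 of 3 for Ccr2 and Ccr6, and 0 of 3 for Cx3cr1, then led by B3galnt1 (0.979), and Cxcr4, then led by Ndufa1 (0.844). Among the receptors themselves r over all libraries ran from -0.59 (Ccr1 and Cxcr6) to 0.84 (Cxcr3 and Cxcr6).

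The rest of the chemokine system was read from 4 lists of other receptors, ligands, atypical receptors and signalling genes. In all annotated cells edgeR called 0 of 7 tested other receptors, 0 of 19 ligands, 0 of 5 atypical or related receptors and 0 of 15 signalling genes in each of the 3 comparisons. For 24 h against control the median log2 differences were 0.48, 0.14, 0.56 and 0.02 in that order, beside 0.08 over all genes and 0.75 over the 9 receptors. Among the other receptors reported here the highest means were those of Ccr7, which leads mature dendritic cells to lymph nodes, at 1007 ± 502 CPM in mDC2 (n = 6), Ccr8 at 154 ± 49.4 CPM in ILC2 (n = 5) and Ccr9, which leads lymphocytes to the gut, at 62.8 ± 40.1 CPM in mDC1 (n = 6).

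The 3 ligands with the highest means were Ccl4, Ccl3 and Ccl5. Ccl4 and Ccl3 were highest in Micro_3 (16768 ± 3579 and 7445 ± 1968 CPM, n = 6), where Ccr1 was at 31.0 CPM, and Ccl5 in NK cells (9201 ± 1697 CPM, n = 6), where Ccr1 was lowest. Of 107 ligand tests in 8 clusters 1 was called for 24 h against control by edgeR: Cxcl13, the ligand of Cxcr5, was 7.17 higher in Macro_2 (SE 1.01, adjusted p = 0.0499), where 2 of 9666 genes (0.0207%) were called. The complement receptor C5ar1 was 1557 ± 945 CPM in CAM_1 (n = 8), Ccrl2 602 ± 135 CPM in mast cells (n = 2) and Fpr2 275 ± 99.8 CPM in Granulo_2 (n = 6). Of the signalling genes Rgs1, a brake on G-protein signalling, was highest in SAMC (1679 ± 1281 CPM, n = 4), Rac2 in Tc (1665 ± 538 CPM, n = 8) and Rgs2 in ILC2 (1080 ± 594 CPM, n = 5).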

How the data were processed

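Leukocytes of 8 libraries (4 of brain parenchyma, 2 of pia, 2 of dura) were measured with droplet 3' single-cell RNA sequencing, with version 2 or 3 chemistry by the methods. The supplement gives version 3 for brain 72 h and dura 24 h, a split unlike that by gene list and by shared barcodes. The authors made the counts with Cell Ranger 6.0 per the labels (genome mm10): each deposited matrix holds whole UMI counts per gene and barcode, not normalized. They removed doublets with scDblFinder and cells by gene number and mitochondrial share, aligned libraries with Harmony and deposited cluster names with UMAP coordinates (a score, not used here). The control pia library is named for brain parenchyma in its title and for pia in its other labels, and was taken as pia. How multi-mapped reads were counted is not given in the sources used here.

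From the counts, UMIs were summed per library and cluster over 30406 shared genes, with sums of at least 30 cells used, so that clusters, not cells, carry the values. Exact 95% Poisson and Clopper-Pearson intervals and the limit of 3 counts behind a count of 0 cover counting error only. Ratios of libraries have exact conditional intervals. Neighbouring clusters were said to differ beyond their spread where the mean within-library log2 ratio (0.5 counts added) exceeded its SD over at least 3 libraries. Shares of cells used cells of at least 1000 UMIs, each thinned to 1000 UMIs, and left out the others. Annotated cells had medians of 1071.5 to 2501 UMIs. Tests used edgeR 4.0.16 (filterByExpr, TMM, robust quasi-likelihood) with DESeq2 1.42.0 as an alternative, in R 4.3.3, and were tested on simulated data. The SE printed with an edgeR estimate is its size divided by the square root of the test's F statistic. Alternatives were other scalings, no filter on low counts, other cell minima and leaving out each library. Leaving out both libraries of the shorter gene list was added after the data were seen, for levels, shares, similar genes and tests. Named genes were the 9 receptors, the called genes of the lists, the 3 highest of each list and the 3 most like each receptor. The ligand called within Macro_2 lies outside that rule and was named after its values were seen. The receptors and lists were chosen with earlier results of these data known, and a gene of the microglial marker list and one of the other receptors are not reported here. Promoters of 8 of 9 receptors matched in RefSeq (GRCm38.p6). Up to 250 bases from the upstream end of a promoter sequence, before the gene start, were used. Positions are those of GRCm38.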

Additional observations from a re-analysis of the deposited data

Results flagged for a closer look

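Results are listed here where the ratio of 24 h to control went one way in 1 tissue and the other way in another, beyond counting error in each. With 1 library per tissue and time, other than the pair of brain 24 h libraries, the difference between tissues was not tested. How many of all genes show such opposite ratios was not counted. By the supplement the control dura library was made with kit version 2 and dura at 24 h with version 3. By shared barcodes, however, dura at 24 h went with the libraries of the longer gene list, control dura among them. If the supplement holds, each dural ratio here also compares kits, and the time and the kit cannot be told apart. Ccr2 in all annotated cells had a ratio of 2.16 and 18.1 in brain (replicates 1 and 2) and 1.09 in pia (1.00 to 1.19), but 0.642 in dura (0.596 to 0.691). Within Granulo_1, Ccr2 had a ratio of 2.13 in pia (1.38 to 3.49, 21 UMIs in controls) and 0.674 in dura (0.541 to 0.840).

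Cx3cr1 in CAM_1 had ratios of 0.723 and 0.743 in brain and 0.652 in pia, and 1.88 in dura (1.24 to 2.93, 30 UMIs in controls). Cxcr3 in all annotated cells had a ratio of 0.673 in pia (0.512 to 0.884) and 1.30 in dura (1.05 to 1.62). In Macro_2 the Cxcr3 ratio was 0.268 in pia (0.0500 to 0.936, 3 against 16 UMIs) and 8.66 in dura (1.20 to 379, 9 against 1 UMI).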

How the results depend on the processing

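Depth limits Ccr6 and Cxcr5 (94 and 89 UMIs) and clusters of few brain cells, such as 31 T cells in control brain. Of 122 alternatives for the levels in which the leading cluster was still present, 114 kept it as the cluster with the highest mean. The exceptions were Ccr1 (Granulo_1 first) and Cx3cr1 (Micro_1 first) among cells of at least 1000 UMIs, Cxcr3 (gdTc first) with UMIs pooled over libraries, and Cxcr4, for which B cells came first without either pial or either dural library and with a minimum of 10 cells (Macro_1 then at 39.5 CPM). Among the alternatives of the named log2 differences, 127 kept their direction and side of the threshold, 17 passed it, and 0 turned direction. Libraries could not be paired by mouse, because the mice behind each library are not given, and tissue was a term of the fits.

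The counts of calls depended on the setting, and the cause was not tested. For 24 h against control in all cells (0 receptors, 0 genes), DESeq2 called 1 receptor and 67 genes, no filter 1 and 191, and 52 genes were called without the libraries of the shorter gene list. Leaving out 1 library gave 0 receptors and 0 to 112 genes. Within clusters (0 receptors, 12 genes), DESeq2 called 46 genes, no filter 179, leaving out the shorter gene list 1086, and leaving out 1 library 0 to 1 receptors and 1 to 1470 genes. For 72 h against 24 h in all cells (0 and 0), DESeq2 called 10 genes, no filter 1 receptor and 210 genes, and leaving out 1 library 0 to 3 and 0 to 5403. Within clusters (0 and 27), DESeq2 called 1 and 188, no filter 2 and 519, and leaving out 1 library 0 to 8 and 0 to 7551. Ccr2 in CAM_1 passed the threshold without control pia (adjusted p = 0.0406 by edgeR) and without pia at 24 h (adjusted p = 0.0417). For dura against pia in all cells (0 and 0), DESeq2 called 1 and 50, no filter 1 and 214, leaving out the shorter gene list 3 and 819, and leaving out 1 library 0 to 3 and 0 to 852. Within clusters (0 and 13), library size alone gave 33 genes, no filter 95, leaving out the shorter gene list 3 receptors and 315 genes, and leaving out 1 library 0 to 5 and 0 to 417. The upper end of each of these ranges came from leaving out brain 24 h replicate 2, other than the 0 receptors for 24 h in all cells. Without brain 24 h replicate 1, 342, 57 and 156 genes were called within clusters in the 3 comparisons, with Ccr1 in Macro_2 for dura against pia (-1.32, adjusted p = 0.0345).

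Thinned to 500 UMIs, the shares of the clusters that led at 1000 UMIs were lower: Ccr1 19.0% in Granulo_2, Ccr2 27.1% in Granulo_1, Ccr6 1.55%, Cxcr4 6.18% and Cxcr5 2.22% in B cells, Cx3cr1 62.8% in Micro_1, Cxcr3 7.65% in Tc and Cxcr6 62.7% in gdTc. The leading cluster changed for Cxcr4, then highest in Granulo_2 (7.97%), and for Cxcr3, then highest in gdTc (8.83%). Without the libraries of the shorter gene list the shares were 37.8% for Ccr2 in Granulo_1, 8.91% for Cxcr2 in Granulo_2, 3.77% for Cxcr4 in B cells and 85.6% for Cxcr6 in gdTc, the 3 most similar genes were 1 of 3 kept for Ccr2 and Ccr6 and 0 of 3 for Cx3cr1 and Cxcr4, and the leading means of Cx3cr1 and Cxcr4 gave no value, since stress_Micro and Macro_1 were then absent. With a pseudocount of 1 CPM, 1 of 3 most similar genes was kept for Ccr6, Cx3cr1 and Cxcr3.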

Other observations

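Barcodes without a cluster name (266 to 1347 per library) also carried the receptors. Cx3cr1 was 1949 and 1443 CPM in these barcodes of control brain and brain 24 h replicate 1, and 679.6 CPM in replicate 2, where annotated cells had 1213 CPM. Ccr1 was 257 CPM in control pia and 338 CPM in pia at 24 h. Ccr2 was 87.3 CPM in brain 24 h replicate 2 and 347 CPM at 72 h, against 247 and 357 CPM in annotated cells. Cxcr6 was 137 and 82.4 CPM in control and 24 h dura, against 236 and 234 CPM in annotated cells.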
